A study of Mus musculus with 3 samples.

Results

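Chemokines are small secreted proteins that guide leukocytes through tissue, and chemokine receptors are the G protein-coupled receptors that read them. The set described here holds 10 genes of the 32285 listed in the files, taken by their symbols, namely the ligands Ccl2, Ccl7, Ccl6, Ccl9, Cxcl1, Cxcl2, Cxcl5 and Cxcl12 and the receptors Ccr2 and Cx3cr1. All 10 symbols were found, each on a single row, and all 10 had UMIs in every section. The files hold spatial libraries (Visium) of heart tissue from C57BL/6 mice, in which each barcoded capture spot records the transcripts of the small region of tissue above it and can therefore cover several cells of different types. There was 1 section per condition. The sham mouse was gavaged with vehicle for 7 days and then had an operation in which the needle was passed without ligation. The I/R mouse was gavaged with the same vehicle for 7 days, after which its left anterior descending artery (LAD) was ligated for 30 min and reperfused for 24 h. The SBP mouse was gavaged with a solution of the Shexiang Baoxin Pill, a traditional Chinese medicine (MUSKARDIA in the labels), for 7 days before the same ischemia and reperfusion. Treatment, mouse and section cannot be told apart, and every difference between conditions below is a difference between single sections.

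In the infarcted heart, injured tissue and the cells in it release CC and CXC chemokines that draw blood leukocytes into the wound. Ccl2 and Ccl7 attract monocytes that carry Ccr2, Ccl6 and Ccl9 act on Ccr1, and Cxcl1, Cxcl2 and Cxcl5 act on Cxcr2 of neutrophils. Cxcl12 is made at rest by stromal and endothelial cells and acts on Cxcr4, while Cx3cr1, the fractalkine receptor, is carried by resident macrophages and patrolling monocytes.

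Most of the ligands lie in clusters of related genes. On the mouse genome GRCm38, Cxcl5 (ENSMUSG00000029371, chr5:90759360-90761624), Cxcl1 (ENSMUSG00000029380, chr5:90891241-90893115) and Cxcl2 (ENSMUSG00000058427, chr5:90903871-90905938) follow each other on the plus strand. The gap between Cxcl1 and Cxcl2 is 10.8 kb, and the gap between Cxcl5 and Cxcl1 is 129.6 kb. Ccl2 (ENSMUSG00000035385, chr11:82035571-82037453) and Ccl7 (ENSMUSG00000035373, chr11:82045712-82047525) are neighbours with a gap of 8.26 kb on the plus strand. Ccl9 (ENSMUSG00000019122, chr11:83572919-83578636) and Ccl6 (ENSMUSG00000018927, chr11:83587882-83593087) are likewise 9.25 kb apart on the minus strand. Cxcl12 (ENSMUSG00000061353) is at chr6:117168535-117181367 on the plus strand, Cx3cr1 (ENSMUSG00000052336) at chr9:119901616-120069879 on the minus strand and Ccr2 (ENSMUSG00000049103) at chr9:124101950-124113557 on the plus strand. All 10 are annotated as protein coding.

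The promoters of Cxcl1 and Cxcl2 are shown because they hold a form of the kB motif, the kind of site that NF-kB proteins bind. Promoter sequences from RefSeq (GRCm38.p6) were given for 7 of the 10 genes, all but Ccl2, Ccl7 and Cxcl5. The letters GGAANTTCC, the sole form of the motif searched, were looked for on both strands in the 250 bases before each start site. They were found for Cxcl1 and Cxcl2 among those 7 genes, and in 0.813% of all 32851 promoters. The 120 bases before each start site are printed 5′ to 3′ on the plus strand, chr5:90891125-90891244 for Cxcl1 and chr5:90903779-90903898 for Cxcl2, with the motif in capitals.
Cxcl1: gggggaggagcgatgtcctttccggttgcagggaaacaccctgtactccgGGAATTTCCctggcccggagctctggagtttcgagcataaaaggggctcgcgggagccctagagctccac
Cxcl2: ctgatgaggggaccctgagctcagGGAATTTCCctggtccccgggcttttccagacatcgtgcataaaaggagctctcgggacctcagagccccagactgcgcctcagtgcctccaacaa
The same 9 letters stand in the same direction in both promoters. They begin 70 bases before the start site in Cxcl1 and 96 bases before it in Cxcl2. The start sites are those of RefSeq and lie slightly inside the gene ranges given above. A match of letters is a description of the sequence and shows no binding.

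Spots with at least 200 detected genes were kept, which left 2234 from sham, 2082 from I/R and 1960 from SBP. They held 25118258, 30238530 and 21631280 UMIs (unique molecular identifiers, each standing for 1 captured transcript molecule), with medians of 10645, 14672 and 10652.5 per spot. The level of a gene is the sum of its UMIs over a section per 1000000 UMIs (CPM). Ranges in parentheses are 95% intervals and cover counting error only. The sections share 1565, 1563 and 1205 spot barcodes in pairs, since slides of this design carry the same barcode list. The cardiomyocyte list (Ttn, Pln, Myh6, Actc1 and Tnnt2, all with UMIs in every section) summed to 20062 CPM, 15794 CPM and 17312 CPM in sham, I/R and SBP. Neutrophil markers (S100a8, S100a9, Csf3r, Retnlg and Mmp9) summed to 31.7 CPM, 262 CPM and 126 CPM, and monocyte markers (Ly6c2, Plac8, Chil3, Cd14 and Vcan) to 28.9 CPM, 109 CPM and 62.0 CPM, with UMIs for every gene of both lists in each section. Fewer cells of a type and less RNA per cell cannot be told apart in such sums.

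The comparison of I/R with sham asks what ischemia and reperfusion changed. The ligands of monocytes, those of Ccr1, those of neutrophils and the receptor Ccr2 were all higher in the I/R section. Over whole sections Cxcl12 and Cx3cr1 differed little, although Cx3cr1 was lower in I/R by other measures given below. Of the 10 genes, 8 were at least 2-fold higher in I/R (log2 ratio of 1 or more, with at least 50 UMIs in both sections together), against 8.38% of all 12231 genes with that many UMIs. No member was at least 2-fold lower, against 0.523% of all genes. The members were chosen with earlier results of these data known, so such counts, here and below, are a description. The median log2 ratio was 2.03 over the 10 members and 0.24 over all genes tested. TMM factors, which set the bulk of genes near 0, shifted every ratio of I/R over sham by -0.23 and every ratio of SBP over I/R by 0.16.

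**Figure D1:**
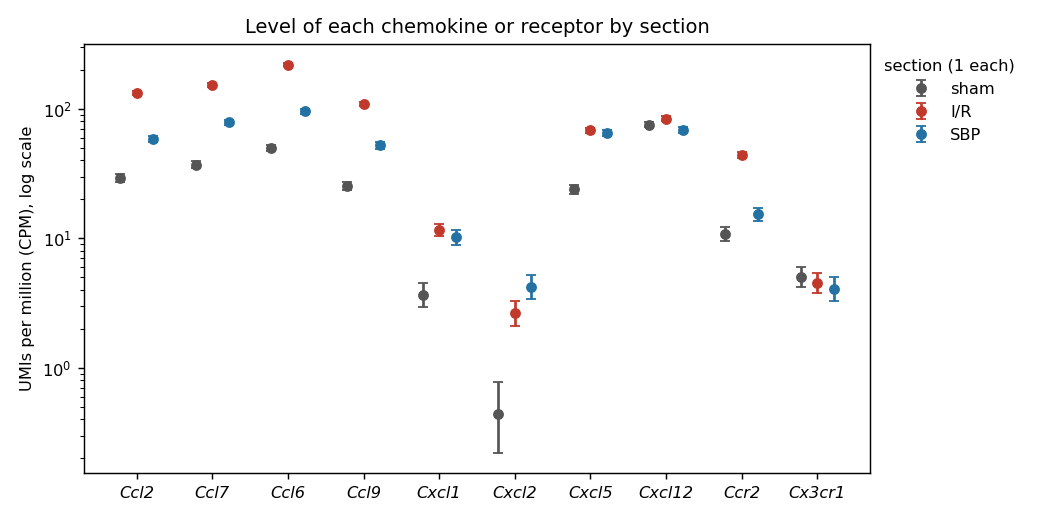
Level of each member in CPM (log axis) in the sham, I/R and SBP sections, 1 section each, with exact Poisson 95% intervals that cover counting error only. Ccl2, Ccl7, Ccl6, Ccl9 and Ccr2 are highest in I/R and lie lower in SBP, Cxcl1 and Cxcl5 have overlapping intervals in I/R and SBP, and Cxcl12 and Cx3cr1 are nearly level.

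Ccl2, the main attractant of inflammatory monocytes, had 29.3 CPM (27.2–31.5) for sham, 132 CPM (128–136) for I/R and 58.6 CPM (55.4–61.9) for SBP. Its neighbour Ccl7, which shares the receptor Ccr2, had 37.1 CPM (34.7–39.5) for sham, 153 CPM (149–157) for I/R and 78.6 CPM (74.9–82.5) for SBP. Both were lowest in sham and highest in I/R, with intervals that do not overlap between any sections. The I/R section exceeded sham 4.51-fold for Ccl2 (log2 ratio 2.17, 2.06 to 2.29) and 4.12-fold for Ccl7 (log2 ratio 2.04, 1.94 to 2.15).

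Ccl6, a chemokine of myeloid cells found in mice and not in humans, had 49.7 CPM (47.0–52.5) for sham, 218 CPM (213–224) for I/R and 95.5 CPM (91.4–99.7) for SBP. Ccl9, its neighbour on the chromosome, had 25.4 CPM (23.5–27.4) for sham, 109 CPM (105–113) for I/R and 52.3 CPM (49.3–55.5) for SBP. These genes had the same order of sections as Ccl2 and Ccl7. Their log2 ratios of I/R over sham were 2.14 (2.05 to 2.22) for Ccl6 and 2.10 (1.98 to 2.23) for Ccl9, and the intervals of the 4 CC ligands overlapped.

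Cxcl5, a Cxcr2 ligand of stromal and epithelial cells, had 23.8 CPM (22.0–25.8) for sham, 68.1 CPM (65.2–71.1) for I/R and 64.6 CPM (61.3–68.1) for SBP. Cxcl1, a Cxcr2 ligand that many cells release on injury, had 3.66 CPM (2.95–4.49) for sham, 11.6 CPM (10.4–12.9) for I/R and 10.2 CPM (8.91–11.7) for SBP. Both were lowest in sham, and their intervals in I/R and SBP overlapped. Cxcl2, a Cxcr2 ligand of activated myeloid cells, rested on 11, 80 and 91 UMIs, which is 0.438 CPM (0.219–0.784) for sham, 2.65 CPM (2.10–3.29) for I/R and 4.21 CPM (3.39–5.17) for SBP. It was thus highest in SBP, on few counts. The I/R section exceeded sham by a log2 ratio of 1.51 (1.38 to 1.65) for Cxcl5, 1.66 (1.32 to 2.01) for Cxcl1 and 2.59 (1.68 to 3.65) for Cxcl2.

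Cxcl12, which retains and guides cells that carry Cxcr4, had 75.4 CPM (72.0–78.9) for sham, 84.0 CPM (80.8–87.3) for I/R and 68.6 CPM (65.1–72.1) for SBP. Its log2 ratio of I/R over sham was 0.16 (0.069 to 0.24), below the median of all genes, and turned to -0.074 with TMM factors, so that its direction depended on the scaling.

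Ccr2, the receptor of inflammatory monocytes for Ccl2 and Ccl7, had 10.9 CPM (9.62–12.2) for sham, 43.9 CPM (41.5–46.3) for I/R and 15.3 CPM (13.7–17.0) for SBP. It had the order of its ligands, with I/R 4.03-fold above sham (log2 ratio 2.01, 1.82 to 2.21). Cx3cr1 had 5.02 CPM (4.18–5.97) for sham, 4.53 CPM (3.80–5.36) for I/R and 4.07 CPM (3.26–5.01) for SBP, with overlapping intervals throughout. Its log2 ratio of I/R over sham was -0.15 (-0.51 to 0.21). The resident macrophage list (Lyve1, Folr2, Timd4, Cd163 and Mrc1) had a ratio of -0.089 (-0.18 to -0.0018) with 1 of 5 genes above 0. That gene was Mrc1 (40.7 CPM for sham, 44.7 CPM for I/R), and the others were lower in I/R. By contrast, the monocyte list had 1.92 (1.80 to 2.04) with 5 of 5 genes above 0, and the neutrophil list 3.05 (2.94 to 3.15) with 5 of 5 genes. The part of these cells in the ratios of the chemokines was not tested.

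The comparison of SBP with I/R, which uses the same I/R section, asks how the heart of the pretreated mouse differed after the same operation. The CC ligands and Ccr2 were lower in SBP, while Cxcl1 and Cxcl5 were nearly level. At least 2-fold lower were 4 of 10 members, Ccl2, Ccl6, Ccl9 and Ccr2, against 4.53% of all 12151 genes tested. With TMM factors Ccl9 was at -0.90 and the count was 3. No member was at least 2-fold higher, against 0.337% of all genes. The median log2 ratio was -0.63 over the members and -0.17 over all genes.

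Ccr2 differed most, with a log2 ratio of -1.52 (-1.70 to -1.34). Ccl6 followed with -1.19 (-1.27 to -1.12) and Ccl2 with -1.17 (-1.26 to -1.08). Ccl9 had -1.06 (-1.16 to -0.96) and Ccl7 -0.96 (-1.04 to -0.88), just short of 2-fold. The intervals of these 5 genes lay wholly below that of any CXC member. Cxcl5 had -0.075 (-0.17 to 0.023) and Cxcl1 -0.18 (-0.43 to 0.067), intervals that include 0. Without the 1% of spots with most UMIs of the gene in each section, an alternative chosen after seeing the data, these ratios were -0.27 (-0.39 to -0.16) and -0.39 (-0.70 to -0.10), so that part of their level in SBP sat in a few rich spots. Cxcl12 had -0.29 (-0.39 to -0.20) and Cx3cr1 -0.16 (-0.56 to 0.24). The neutrophil list had -1.06 (-1.12 to -0.998) with 0 of 5 genes above 0, lower than the ligands of neutrophils, and the monocyte list -0.82 (-0.91 to -0.72) with 0 of 5 genes. The part of these cells in the lower CC ligands was not tested.

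Cxcl2 stood apart, with a log2 ratio of SBP over I/R of 0.67 (0.22 to 1.12). That value rests on few spots. In SBP, 5 spots with at least 3 UMIs of Cxcl2 held 49 of its 91 UMIs, and a single spot held 17, while in I/R 2 such spots held 10 of 80. All 5 SBP spots were among the 10% of spots richest in neutrophil markers, and 1 of the 5 was Ankrd1-high (defined below). Without the richest 1% of spots of each section the ratio was -0.30 (-1.07 to 0.45).

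**Figure D2:**
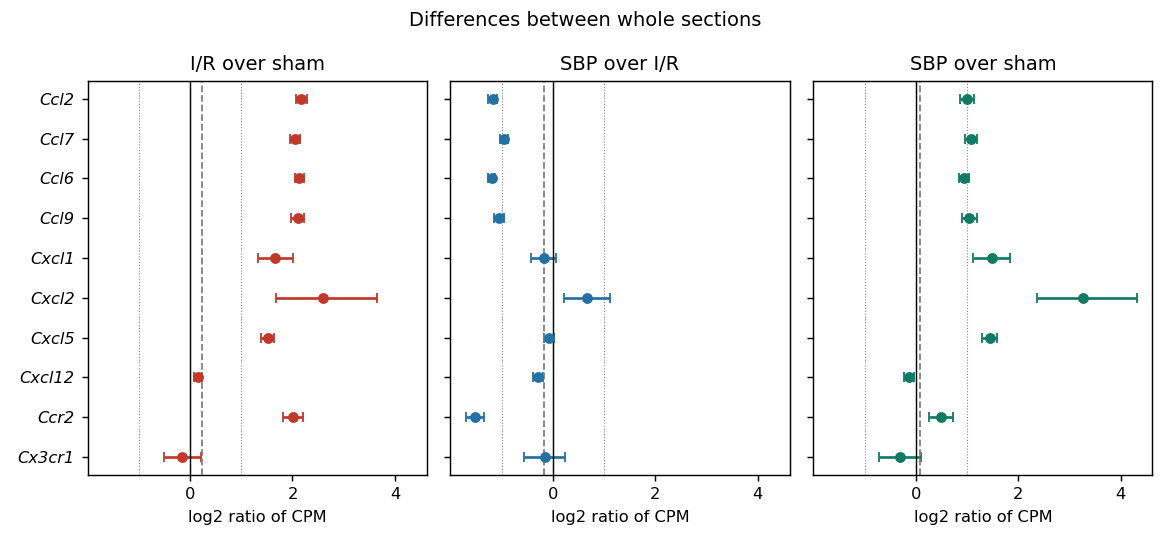
Log2 ratios of CPM between whole sections for each member, with exact conditional binomial 95% intervals for counting error; dashed lines mark the median of all genes tested and dotted lines 2-fold in either direction. The CC ligands and Ccr2 are above 0 for I/R over sham and below 0 for SBP over I/R, where the intervals of Cxcl1 and Cxcl5 include 0 and Cxcl2 lies above it.

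SBP was also set beside sham, the section shared with the comparison of I/R. At least 2-fold higher were 6 of 10 members, Ccl2, Ccl7, Ccl9, Cxcl1, Cxcl2 and Cxcl5, against 1.48% of all 11768 genes. With TMM factors, which shifted every ratio of SBP over sham by -0.072, Ccl2 was at 0.93 and Ccl9 at 0.97, and 4 members were past 2-fold. The log2 ratios were 1.0 (0.87 to 1.14) for Ccl2, 1.09 (0.97 to 1.20) for Ccl7 and 1.04 (0.90 to 1.19) for Ccl9, all near 2-fold, and Ccl6 lay just under it with 0.94 (0.84 to 1.04). Higher ratios were found for Cxcl5, 1.44 (1.30 to 1.58), Cxcl1, 1.48 (1.12 to 1.85), and Cxcl2, 3.26 (2.36 to 4.32). Ccr2 had 0.49 (0.26 to 0.73). The CC ligands thus stayed above sham by about the same factor as each other, and the ligands of neutrophils by more. The median was 1.02 over the members and 0.082 over all genes.

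The ratio of UMIs of a gene to those of another within a section needs no scaling between sections, although it does not compare the abundance of both transcripts. For each UMI of Ccl2 there were 0.815, 0.516 and 1.10 of Cxcl5 in sham, I/R and SBP. On the log2 scale this ratio differed by -0.66 (-0.84 to -0.48) between I/R and sham and by 1.10 (0.96 to 1.23) between SBP and I/R. The balance between these CC and CXC ligands was thus lowest in I/R. By contrast, Ccl7 to Ccl2 was 1.27, 1.16 and 1.34, Ccl9 to Ccl6 was 0.511, 0.499 and 0.548 and Cxcl1 to Cxcl5 was 0.154, 0.170 and 0.158. The proportions of these pairs of related ligands varied little, and the largest difference was that of Ccl7 to Ccl2 between SBP and I/R, 0.21 (0.090 to 0.34) on the log2 scale. Cxcl2 to Cxcl1 varied more, with 0.120, 0.229 and 0.412 on few counts of Cxcl2. Ccr2 per UMI of the monocyte list was 0.376, 0.402 and 0.247, which differed by 0.10 (-0.13 to 0.32) between I/R and sham and by -0.70 (-0.90 to -0.50) between SBP and I/R. Cxcl5 per UMI of the neutrophil list was 0.752, 0.260 and 0.514. Cx3cr1 per UMI of a macrophage list (C1qa, C1qb, C1qc, Adgre1, Ms4a7 and Csf1r) was 0.0125, 0.00918 and 0.0107. On the log2 scale it differed by -0.45 (-0.81 to -0.084) between I/R and sham.

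The share of spots with a member was compared at an equal depth of 6500 UMIs per spot, to which each spot was thinned at random, which left out 132 (sham), 202 (I/R) and 213 (SBP) spots of lower depth. Ccl6 was found in 19.7% (18.1–21.5) of sham spots, 41.7% (39.5–44.0) of I/R spots and 27.2% (25.2–29.4) of SBP spots. Without thinning the shares were 28.2%, 63.3% and 38.4%. Ccl2 was found in 9.66% (8.43–11.0), 32.3% (30.2–34.5) and 18.4% (16.6–20.3) of spots. Ccl2 and Ccl6 were thus found over more of the I/R section than of the others. Ccr2 was found in 4.42% (3.59–5.39), 16.1% (14.5–17.9) and 6.47% (5.36–7.73) of spots, with the same order. Cxcl5 was found in 6.52% (5.50–7.66), 22.2% (20.4–24.2) and 15.8% (14.1–17.6) of spots, so that SBP had fewer Cxcl5 spots than I/R at about the same CPM. Cxcl1 was found in 1.57% (1.08–2.20), 5.69% (4.69–6.84) and 4.18% (3.29–5.23) of spots. Cxcl2 was found in 0.238% (0.0773–0.554), 0.798% (0.447–1.31) and 0.916% (0.524–1.48) of spots, with overlapping intervals in I/R and SBP. Cxcl12 was found in 37.1%, 37.8% and 34.1% of spots and Cx3cr1 in 3.33%, 2.87% and 2.63%. These were the most alike between sections.

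The transcripts were unevenly spread. In sham the richest 1% of spots (23 spots for each gene) held 47.1% of the Cxcl5 UMIs, 32.1% of those of Ccl2 and 7.34% of those of Cxcl12. In I/R the richest 1% (21 spots) held 17.2%, 15.4% and 7.13%, and in SBP (20 spots) 28.0%, 19.2% and 7.55%. Cxcl12 was the most even of the 10 in all 3 sections by this measure. The sham spot with most Cxcl5 held 35 UMIs of it and 78 UMIs of the 10 members together, among 16001 UMIs of all genes. Without the richest 1% of spots of each gene the log2 ratio of I/R over sham was 2.15 (1.98 to 2.33) for Cxcl5, 2.41 (1.94 to 2.92) for Cxcl1, 2.49 (2.36 to 2.63) for Ccl2 and 2.41 (2.18 to 2.65) for Ccr2. All 4 were larger than with those spots, which held a larger share of the UMIs of each gene in sham than in I/R. The step was chosen after seeing the data and adds no separate result to those shares.

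Spots were then divided by Ankrd1, a stress-induced gene of cardiomyocytes. Spots above the sham 95th percentile, 27.0 Ankrd1 UMIs per 10000, were called Ankrd1-high. They were 112 spots of sham (5.01% by construction), 479 of I/R (23.0%) and 326 of SBP (16.6%). In sham the chemokines were concentrated in these spots, and in I/R much less so. Past 2-fold in favour of Ankrd1-high spots were 7 of 9 members with enough UMIs in sham, against 8.95% of all genes. In I/R the count was 0 of 10, against 2.12%, and in SBP 2 of 10, Cxcl1 and Cxcl5, against 2.93%. The SBP count depended on the threshold and was 8 of 10 with the sham 90th percentile, where 1 member, Cxcl5, passed in I/R. No share of all genes was computed at the 90th percentile, so these counts cannot be set against a background. With the 95th percentile, the medians over the members were 1.75, 0.49 and 0.85 in sham, I/R and SBP, beside 0.31, 0.24 and 0.21 over all genes.

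**Figure D3:**
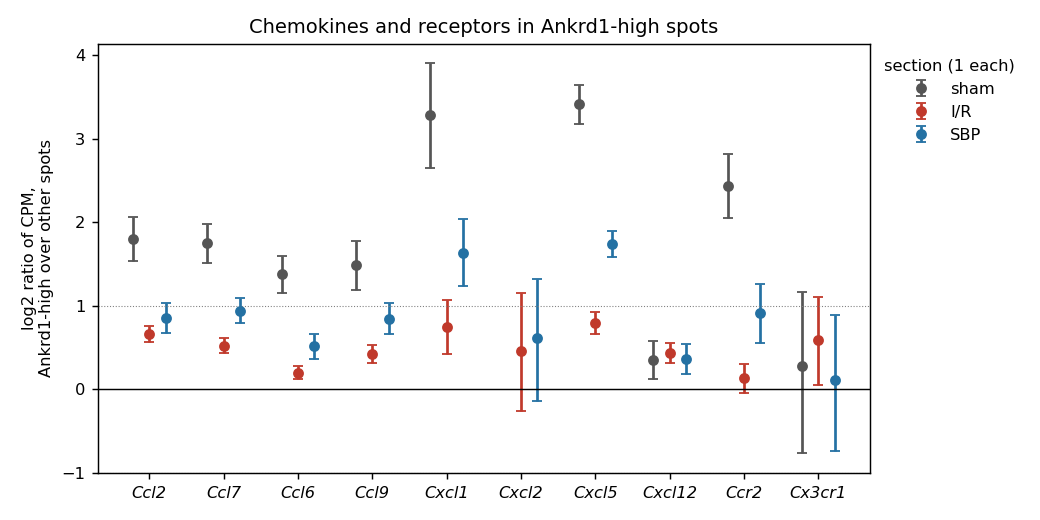
Log2 ratio of CPM in Ankrd1-high over other spots for each member in the 3 sections, with exact conditional binomial 95% intervals for counting error and a dotted line at 2-fold; Cxcl2 in sham is not drawn, as it had no UMI in Ankrd1-high spots. Cxcl1, Cxcl5 and Ccr2 show the widest gaps between sections, from 3.41 in sham to 0.79 in I/R for Cxcl5.

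Cxcl5 had 149 CPM (131–167) in Ankrd1-high spots of sham beside 14.0 CPM (12.5–15.6) elsewhere, a log2 ratio of 3.41 (3.17 to 3.65). In I/R it had 98.5 CPM (91.8–106) beside 56.8 CPM (53.7–60.1), a ratio of 0.79 (0.66 to 0.92). In SBP it had 151 CPM (139–164) beside 45.4 CPM (42.4–48.7), a ratio of 1.74 (1.58 to 1.89). The level in Ankrd1-high spots was thus about equal in sham and SBP and lower in I/R, and the level elsewhere was lowest in sham. Cxcl1 had the same order of ratios, 3.28 (2.65 to 3.90) with sham, 0.74 (0.42 to 1.06) with I/R and 1.63 (1.23 to 2.03) with SBP. Cxcl2 had 0 of 1845010 UMIs in Ankrd1-high spots of sham, which allows up to 1.63 CPM when 3 UMIs, in place of the Poisson limit, are taken as the floor of a count of 0, and 0.473 CPM elsewhere, so that no difference was detectable at this depth. Its ratios were 0.46 (-0.27 to 1.15) in I/R and 0.61 (-0.14 to 1.31) in SBP.

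Ccr2 had 44.4 CPM (35.3–55.2) in Ankrd1-high spots of sham beside 8.21 CPM (7.08–9.46) elsewhere, a log2 ratio of 2.44 (2.05 to 2.82). In I/R it had 46.7 CPM (42.2–51.7) beside 42.8 CPM (40.1–45.6), a ratio of 0.13 (-0.047 to 0.30) whose interval includes 0. In SBP it had 24.7 CPM (20.1–30.2) beside 13.2 CPM (11.6–15.0), a ratio of 0.91 (0.55 to 1.25). The monocyte receptor was thus at about the same level inside and outside Ankrd1-high spots in I/R. The 4 CC ligands lay between 1.38 (Ccl6) and 1.80 (Ccl2) in sham, between 0.20 (Ccl6) and 0.66 (Ccl2) in I/R and between 0.51 (Ccl6) and 0.94 (Ccl7) in SBP. Cxcl12 was alike in all sections, with 0.35 (0.12 to 0.58), 0.43 (0.31 to 0.55) and 0.37 (0.18 to 0.54). Cx3cr1 had 0.27 (-0.77 to 1.16), 0.59 (0.054 to 1.11) and 0.11 (-0.74 to 0.89), on few counts.

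Compared within the same kind of spot, I/R exceeded sham chiefly outside Ankrd1-high spots. There 8 of 10 members were at least 2-fold higher in I/R, against 6.85% of all genes, with log2 ratios of 2.02 (1.85 to 2.21) for Cxcl5 and 2.38 (2.16 to 2.61) for Ccr2. In Ankrd1-high spots 3 of 9 members were, Ccl2, Ccl6 and Ccl9, against 5.32% of all genes, and the medians were 0.14 over the members and 0.13 over all genes. Cxcl5 was lower there in I/R than in sham, with a ratio of -0.59 (-0.79 to -0.39). SBP was at least 2-fold lower than I/R for 5 of 10 members outside Ankrd1-high spots, Ccl2, Ccl7, Ccl6, Ccl9 and Ccr2, against 4.19% of all genes, and for 0 of 10 inside them, against 2.96%. Ccr2 had -1.70 (-1.91 to -1.49) outside and -0.92 (-1.25 to -0.59) inside, and Ccl2 -1.16 (-1.27 to -1.05) and -0.97 (-1.14 to -0.80). The CC ligands and Ccr2 were lower in SBP in both kinds of spot. Cxcl5 had -0.32 (-0.45 to -0.19) outside and 0.62 (0.46 to 0.77) inside, lower in SBP in the former and higher in the latter. The neutrophil list had ratios of Ankrd1-high over other spots of 1.41, 0.27 and 1.62 in sham, I/R and SBP. Those of Cxcl5 were 3.41, 0.79 and 1.74. Both were lowest in I/R, but the ratio of Cxcl5 was far larger in sham than in SBP, and that of the list was not. The part of the list in the result was not tested.

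Bins of Ankrd1 showed where along its range the members peaked. The bins had their limits at the sham median (4.46 per 10000 UMIs), the threshold and 2 times the threshold (53.9). Ccl6 in I/R had 98.9 CPM in the lowest bin, 285 CPM in the next, 243 CPM above the threshold and 197 CPM in the top bin of 25 spots. Ccr2 in I/R had 16.0, 60.8, 47.4 and 35.9 CPM in the same bins. Ccl6 and Ccr2 thus peaked in I/R below the Ankrd1 threshold, and the other CC ligands did not. Ccl2 in I/R had 49.4, 158, 183 and 142 CPM in these bins. Ccl7 had 59.9, 189, 198 and 161 CPM, with overlapping intervals on the 2 sides of the threshold. Ccl9 had 52.5, 132, 132 and 152 CPM. Cxcl5 in I/R increased through the 3 lower bins, with 25.6, 77.9 and 97.8 CPM. In the top bin it had 109.9 CPM (82.1–144), an interval that includes the value of the bin below. In sham Cxcl5 had 3.15, 25.0 and 155 CPM in the 3 lower bins, and 44.3 CPM from 5 UMIs in the top bin of 5 spots.

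Another division used a list of injury genes (Tgfbi, Timp1, Spp1, Fn1, Lgals3, Tnc and Ccn2) in place of Ankrd1, summed per 10000 UMIs with the threshold again at the sham 95th percentile. It called 112 spots of sham, 819 of I/R (39.3%, 37.2–41.5) and 363 of SBP (18.5%, 16.8–20.3) injury-high. Here the members were concentrated in all 3 sections. At least 2-fold higher in injury-high spots were 8 of 9 members in sham, against 30.8% of all genes, 9 of 10 in I/R, against 40.6%, and 9 of 10 in SBP, against 19.3%. The medians over the members were 3.74, 3.37 and 2.96, beside 0.63, 0.83 and 0.50 over all genes. The member under 2-fold in each section was Cxcl12, with 0.72 (0.48 to 0.95), 0.99 (0.88 to 1.10) and 0.55 (0.37 to 0.72). The count for I/R was thus 0 with Ankrd1 and 9 with the injury list. That list was chosen with earlier results of these data known. Spp1, Tgfbi and Fn1 of the list are among the genes that varied most closely with members over I/R spots (given below). The concentration of the members in injury-high spots is thus a description and no independent result.

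Within injury-high spots the CC ligands and Ccr2 differed less between I/R and sham than over whole sections. Since genes of the list that sets these spots vary closely with these members, this too is no independent result. Ccl2 had 280.0 CPM (253–309.5) in injury-high spots of sham, 332 CPM (321–343) in those of I/R and 229 CPM (214–246) in those of SBP. Elsewhere it had 14.9 CPM, 25.2 CPM and 24.9 CPM. The log2 ratio of I/R over sham for Ccl2 was 0.25 (0.093 to 0.40) within injury-high spots, beside 2.17 for the whole sections. In the same spots it was 0.30 (0.15 to 0.45) for Ccl7 and 0.20 (-0.056 to 0.47) for Ccr2. It was larger for Ccl6, 0.76 (0.62 to 0.91), and Ccl9, 0.83 (0.62 to 1.04). For Cx3cr1 it was -0.67 (-1.40 to 0.12) in these spots and -0.98 (-1.52 to -0.47) elsewhere, on few counts. SBP over I/R was -0.53 (-0.65 to -0.42) within injury-high spots and -0.018 (-0.20 to 0.17) elsewhere for Ccl2, and -0.87 (-1.09 to -0.66) and -0.24 (-0.61 to 0.13) for Ccr2. Over whole sections these ratios were -1.17 for Ccl2 and -1.52 for Ccr2. The share of injury-high spots had the same order of sections as the whole-section levels of Ccl2 and Ccr2. The part of that share in the levels was not tested. Cxcl5 had 243 CPM (217–270.2), 155 CPM (148–163) and 239 CPM (223–255) in injury-high spots, and SBP exceeded I/R there by 0.62 (0.50 to 0.74). Cxcl2 had 3.66 CPM (1.19–8.55), 6.65 CPM (5.18–8.40) and 21.0 CPM (16.5–26.4). Cxcl1 had a ratio of SBP over I/R of 0.29 (-0.035 to 0.62) there. In these spots SBP was thus above I/R for Cxcl5, while the interval of Cxcl1 includes 0. Elsewhere SBP was above I/R for both, by 0.50 (0.31 to 0.68) for Cxcl5 and 0.60 (0.16 to 1.03) for Cxcl1. Cxcl5 was thus higher in SBP in both kinds of spot, beside -0.075 over whole sections. The higher Cxcl2 of SBP, 75 UMIs in injury-high spots, rested on the 5 spots with at least 3 UMIs, which were all injury-high and held 49 of them. Without such spots in either section, a step chosen after seeing the data, Cxcl2 had a ratio of SBP over I/R of 0.36 (-0.36 to 1.05), whose interval includes 0.

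Crossing both divisions, a step chosen after seeing the data, placed the highest levels of the CC ligands in injury-high spots that were not Ankrd1-high. In I/R, 357 spots were above both thresholds, 462 above that of the injury list only, 122 above that of Ankrd1 only and 1141 above neither. Ccl6 had 300.1 CPM (286–314), 827 CPM (801–853), 89.4 CPM (77.6–102) and 44.8 CPM (41.7–48.1) in these spots. Ccr2 had 59.0 CPM, 179 CPM, 15.6 CPM and 6.21 CPM. The myeloid ligand and the monocyte receptor shared the same order. The cardiomyocyte list summed to 12863 CPM, 8078 CPM, 16198 CPM and 18796 CPM in the same spots, and the neutrophil list to 382 CPM, 1073 CPM, 89.0 CPM and 27.6 CPM. Cxcl5 in sham had another order, with 294 CPM (249.6–345) above both thresholds and 210.5 CPM (181–244) above that of the injury list only, where I/R had 108 CPM (99.5–116) and 215 CPM (202–229).

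**Figure D4:**
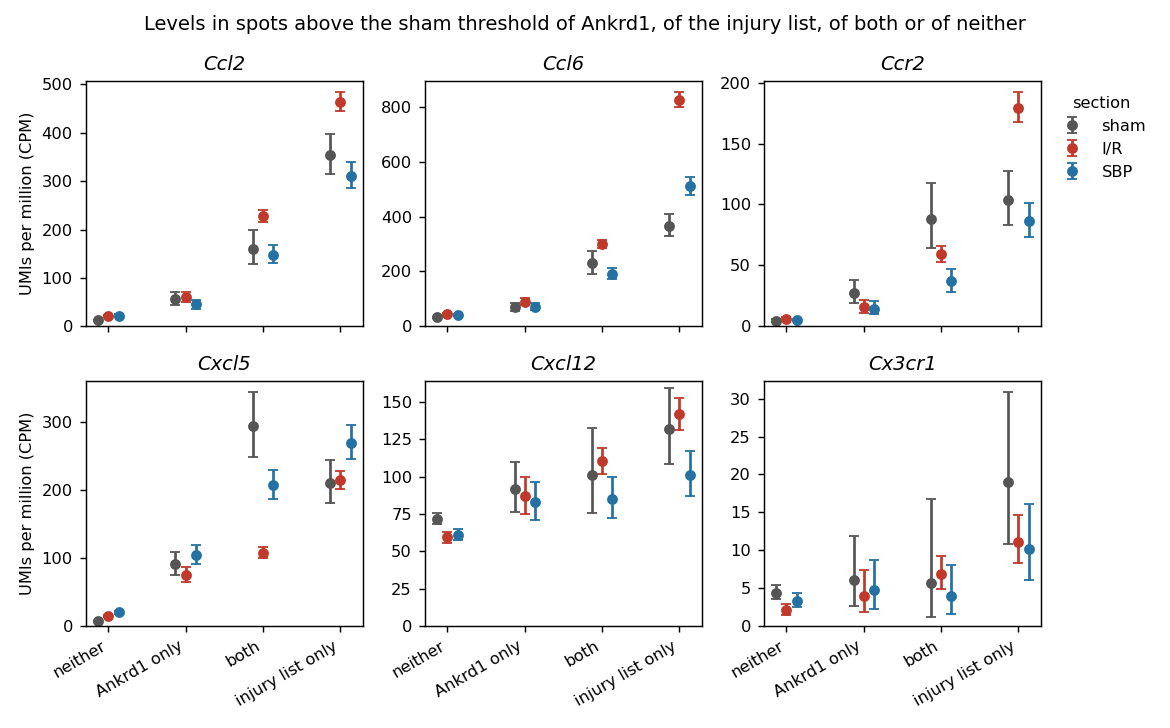
CPM of 6 members in spots above the sham threshold of Ankrd1 only, of the injury list only, of both or of neither, in the 3 sections, with exact Poisson 95% intervals for counting error. Ccl2, Ccl6 and Ccr2 are highest in spots above the injury list threshold only, most of all in I/R, and Cxcl5 of sham is highest in spots above both.

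The cell types near the chemokines were described by marker-rich spots, the 10% of spots of a section with the highest sum of a marker list per 10000 UMIs. In the 209 monocyte-rich spots of I/R, Ccr2 had 280.4 CPM beside 27.5 CPM in the rest, a log2 ratio of 3.35 (3.19 to 3.51). Ccl6 had 1206 CPM beside 150.2 CPM, a ratio of 3.00 (2.93 to 3.08), and Cx3cr1 17.9 CPM beside 3.61 CPM, a ratio of 2.32 (1.72 to 2.88). In macrophage-rich spots (C1qa, C1qb, C1qc, Adgre1, Ms4a7 and Csf1r) Ccr2 had a ratio of 3.22 (3.06 to 3.38) and Ccl6 2.86 (2.79 to 2.93). Among the 9 lists plotted, both receptors and Ccl6 thus had their highest ratio in spots rich in monocyte markers. The intervals of Ccr2 in monocyte-rich and macrophage-rich spots overlapped, however, those of Ccl6 met at 2.93, and Cx3cr1 had few counts. In the neutrophil-rich spots of I/R, Cxcl5 had 343 CPM beside 50.9 CPM, a ratio of 2.76 (2.62 to 2.89). The ligands of neutrophils had larger ratios in the neutrophil-rich spots of SBP than in those of I/R, 3.33 (3.17 to 3.48) for Cxcl5, 3.42 (3.03 to 3.82) for Cxcl1 and 5.05 (4.36 to 5.78) for Cxcl2. The ratios of sham were about as large as those of SBP for Cxcl5, 3.50 (3.26 to 3.74), and Cxcl1, 3.36 (2.74 to 3.98). The Cxcl2 value of SBP rests on 67 UMIs in these spots, 49 of them in 5 spots, and without spots of at least 3 UMIs it was 3.18 (2.21 to 4.12), beside 2.96 (2.18 to 3.71) in I/R. Of the neutrophil-rich spots, 15.6%, 15.3% and 35.7% were Ankrd1-high in sham, I/R and SBP. Fibroblast-rich spots of I/R (Dcn, Fbln1, Col1a2, Pdgfra and Tcf21) had ratios of 1.04 (0.87 to 1.20) for Cxcl5 and 0.56 (0.39 to 0.72) for Cxcl12. Cardiomyocyte-rich spots of I/R had negative ratios for all 10 members, from -3.10 (Cxcl1) to -0.50 (Cx3cr1, whose interval of -1.66 to 0.47 includes 0). In sham the Cx3cr1 ratio was 0.26 (-0.65 to 1.07). Since a spot holds several cells, these values do not say which cell made a transcript.

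**Figure D5:**
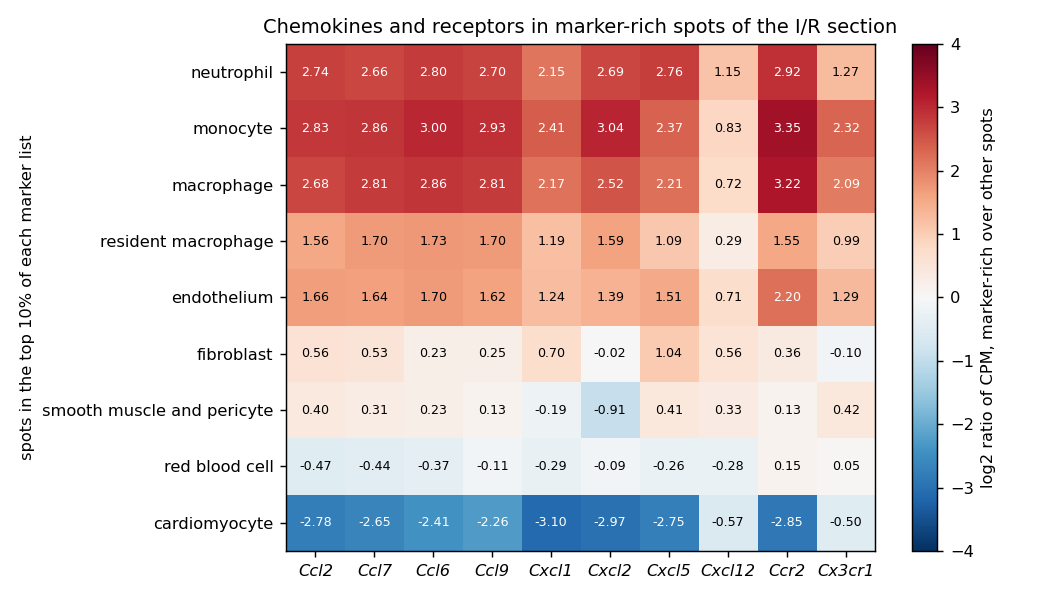
Log2 ratio of CPM in marker-rich over other spots of the I/R section for each member (columns) and 9 marker lists (rows), with colour for the sign and size of the ratio. The neutrophil, monocyte and macrophage rows are positive throughout, from 0.72 to 3.35, and the cardiomyocyte row is negative throughout.

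The members also shared spots. At equal depth, 68.4% (64.5–72.1) of I/R spots with Ccl2 also had Ccl7, beside 20.3% of spots without Ccl2. Ccr2 was found in 36.4% (32.6–40.4) of I/R spots with Ccl2 and 6.44% of those without, and Cxcl5 in 61.7% (51.8–70.9) of spots with Cxcl1 and 19.9% of those without. Cxcl12 was found in 50.1% (46.0–54.1) of spots with Ccl2 and 31.9% of those without. Pairs that are neither neighbours nor receptor and ligand also shared spots. Ccl6 was found in 73.3% (69.6–76.8) of spots with Ccl2 and 26.6% of those without. It was found in 76.6% (67.5–84.3) of spots with Cxcl1 and 39.6% of those without. As a description over the 2082 spots of I/R, which share 1 library, the Pearson correlation of log2(1 + UMIs per 10000) was 0.75 between Ccl2 and Ccl7 and 0.77 between Ccl6 and Ccl9. In sham it was 0.55 and 0.43, over 2234 spots.

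Among 8066 genes ranked by this correlation in I/R, the nearest to Ccl2 were Ccl7, Actb and Spp1, and the nearest to Ccl7 were Actb, Ccl2 and Spp1, all at 0.75. The nearest to Ccl6 were Actb (0.81), Spp1 (0.80) and Lyz2 (0.79), a lysozyme of myeloid cells. The nearest to Ccl9 were Ccl6 (0.77), Actb and Lyz2. Spp1, which encodes osteopontin, and Actb, which encodes an actin of non-muscle cells, thus recurred for the CC ligands. The nearest to Ccr2 were Tgfbi (0.68), Spp1 (0.65) and Fn1 (0.64), 3 of the 7 injury genes. Cxcl5 was nearest to Ccl7 (0.55), Actb (0.55) and Rpsa (0.53). The nearest to Cxcl1 was Cxcl5, at 0.35, and at 0.43 over the spots of SBP. For Cxcl12 the highest value in I/R was 0.32, with Eef1a1, a weak likeness.

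Partners of the members were taken from a list of 7. Ccr1, the receptor for Ccl6 and Ccl9, had 4.58 CPM (3.78–5.50) for sham, 21.0 CPM (19.4–22.7) for I/R and 8.28 CPM (7.11–9.58) for SBP. Cxcr2, the neutrophil receptor for Cxcl1, Cxcl2 and Cxcl5, had 1.04 CPM (0.676–1.52) for sham, 4.80 CPM (4.05–5.64) for I/R and 2.27 CPM (1.68–2.99) for SBP. Both receptors had the order of sections of Ccr2. The log2 ratio of SBP over I/R was -1.35 (-1.59 to -1.10) for Ccr1 and -1.08 (-1.58 to -0.61) for Cxcr2, so that Cxcr2 was lower in SBP at nearly level Cxcl5. Cxcr4, a receptor for Cxcl12, had 4.90 CPM (4.07–5.84) for sham, 10.6 CPM (9.52–11.9) for I/R and 6.80 CPM (5.74–7.99) for SBP. Ackr3, the scavenger receptor for Cxcl12, had 36.6 CPM (34.3–39.0) for sham, 33.7 CPM (31.6–35.8) for I/R and 30.2 CPM (27.9–32.6) for SBP. The log2 ratio of I/R over sham was 1.12 (0.82 to 1.43) for Cxcr4 and -0.12 (-0.25 to 0.010) for Ackr3, so that of both Cxcl12 receptors only Cxcr4 was past 2-fold. The interval of Cxcr4 includes 1, and with the TMM shift of -0.23 it too was under 2-fold. Cx3cl1, the ligand of Cx3cr1, had 3.86 CPM (3.13–4.71) for sham, 4.43 CPM (3.71–5.25) for I/R and 2.91 CPM (2.24–3.73) for SBP. The scavenger receptors Ackr1 and Ackr2 had 12 to 28 UMIs per section, too few for a ratio.

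Beyond the 10 members the files list 53 other chemokine and receptor symbols, 5 of which stand on several rows and were not used. Of the other 48, 7 had no UMI in any section, 16 had fewer than 50 in all and 25 had at least 50. At least 2-fold higher in I/R than in sham were 14 of 23 with enough UMIs, with a median log2 ratio of 1.45. Among them were Ccl12, Ccl17, Ccl3, Ccl4, Ccl5, Ccr1, Cxcl10, Cxcl3, Cxcr2, Cxcr4, Cxcr6, Pf4 and Ppbp. With the TMM shift of -0.23, Cxcr4 (1.12) and Pf4 (1.17) fall under 2-fold. At least 2-fold lower in SBP than in I/R were 5 of 23, Ccl17, Ccr1, Cxcr2, Pf4 and Ppbp. With the TMM shift of 0.16, Pf4 (-1.05) and Cxcr2 (-1.08) are no longer past 2-fold. At least 2-fold higher in SBP than in sham were 5 of 20, Ccl3, Ccl4, Ccl5, Cxcl3 and Cxcr2. The shares of all genes past 2-fold in these comparisons are those given above beside the 10 members.

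Ccl12, a mouse relative of Ccl2 that also acts on Ccr2, had 6.57 CPM, 22.8 CPM and 12.2 CPM in sham, I/R and SBP, the order of Ccl2 and Ccl7. Ccl17, a ligand of Ccr4 from dendritic cells and macrophages, had 1, 86 and 14 UMIs, and its log2 ratio of I/R over sham was 6.16 (3.64 to 11.48). Pf4 and Ppbp are best known as platelet chemokines. Pf4 had 63.3 CPM, 142 CPM and 68.6 CPM, and Ppbp 0.995 CPM, 5.56 CPM and 1.90 CPM. The platelet list (Itga2b, Gp9 and Gp1bb, of which Gp9 was at 0 in SBP) had 38, 50 and 31 UMIs. Its ratio of I/R over sham was 0.13 (-0.51 to 0.78), whose interval includes 0, beside 1.17 (1.08 to 1.25) for Pf4 and 2.48 (1.87 to 3.15) for Ppbp. The list has few counts, and the part of platelets in Pf4 and Ppbp was not tested. Cxcr6, a receptor of T and other lymphoid cells, had 4, 53 and 25 UMIs. In I/R, 36 of the 53 lay in Ankrd1-high spots, a log2 ratio of 2.52 over the other spots (1.65 to 3.44). This made it the sole gene of the wider family at least 2-fold higher there among 19 tested, against 2.12% of all genes. That count of 1 rests on 53 UMIs, just above the minimum of 50, and their spread over spots was not examined. In SBP, 16 of the 25 Cxcr6 UMIs lay in such spots, a ratio of 3.01 (1.74 to 4.37) on fewer than 50 UMIs. Its ligand Cxcl16 had 12.7 CPM, 21.2 CPM and 16.9 CPM. The T cell list (Cd3e, Cd3d and Cd2) had 11, 22 and 19 UMIs, and the part of these cells was not tested.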

How the data were processed

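Spatial libraries of 3 mouse heart sections, 1 each from sham, I/R and SBP, were used. The single-nucleus libraries are not analysed here. The authors deposited raw counts of UMIs per gene and spot, made with Space Ranger (version 1.3.0 in the submitters' processing notes) on mm10, with no normalization. The methods of the paper name another version and a human reference, while the files list mouse genes. Conditions were taken from the labels. Spots were kept from 200 detected genes up. No p-value is given, since no condition has a replicate.

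UMIs were summed per section or region and divided by all UMIs (CPM). Intervals at 95% were exact Poisson for sums, Clopper-Pearson for shares and, for ratios, exact binomial conditional on both sums. They cover counting error only, and a level of 4.53 CPM (Cx3cr1 in I/R) rests on 137 UMIs. A gene counted as different at 2-fold with at least 50 UMIs in both groups together. Spots were thinned without replacement to 6500 UMIs. The ratios were checked on simulated section sums with counting error only, which cannot show how mice or sections vary. The members and lists, the injury genes included, were chosen with earlier results of these data known. Named genes are the 10 members, 7 partners, other family genes past 2-fold (not all reported here), and the 3 genes most correlated over I/R spots with each member of at least 200 UMIs. Positions came from GENCODE M21 and promoters from RefSeq. Alternatives were other scalings (TMM, median of ratios), totals without mitochondrial UMIs, equal weight per spot, other spot filters and UMI minima, other thresholds and measures of the region, and other depths. Python 3.11.15 (numpy 2.4.6, scipy 1.17.1, pandas 2.3.3, matplotlib 3.10.9) and edgeR 4.0.16, for TMM factors, in R 4.3.3 were used.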

Additional observations from a re-analysis of the deposited data

How the results depend on the processing

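No paired analysis was possible because the conditions have a single section each, and no replicate could be left out for the same reason. Of 118 recomputed counts of members past 2-fold, 107 stayed within 1.5 times the reported count or stayed at 0. The other 11 all concern Ankrd1 regions. No share of all genes was computed beside the recomputed counts, except for injury-high over other spots within a section. Most of the 118 had a reported count of 0, so the 107 say little about the counts above 0. With the 90th percentile of sham as the Ankrd1 threshold, 1 member (Cxcl5) was higher in those spots of I/R and 8 in those of SBP, and 1 (Cxcl2) was higher in SBP than in I/R within such spots. With the 99th percentile, 1 member (Cx3cr1) was lower in Ankrd1-high spots of sham, 1 (Cxcl1) was higher and 1 (Ccl6) lower in SBP than in I/R, and the Ccl6 ratio of Ankrd1-high over other spots in I/R was -0.16. Equal weight per spot gave 1 member (Ccr2) lower in SBP than in I/R in Ankrd1-high spots, and -0.025 for that Ccl6 ratio. With the injury list as region, 9 members were higher in its spots in I/R and 9 in SBP, 1 (Cxcl2) was higher in SBP than in I/R within them, and 0 were lower elsewhere, where the log2 ratios of SBP over I/R were 0.074 for Ccl7, 0.60 for Cxcl1, 0.50 for Cxcl5 and 0.026 for Cxcl12. With thinned Ankrd1, which left out shallow spots, among them the spot richest in Cxcl2, the Cxcl2 ratio of SBP over I/R outside Ankrd1-high spots was -0.97. Cxcl12 in I/R over sham was -0.074 with TMM and -0.081 with the median of ratios. Cxcl2 in SBP over I/R was -0.30 without its richest 1% of spots, chosen after seeing the data. The cause of the changes with the threshold was not tested.

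Of 30 ratios between whole sections, 17 moved by less than their counting interval with TMM and 12 with equal weight per spot, where those of I/R over sham were larger (2.05 for Cxcl5 and 2.55 for Ccl2). Shares of spots depend on the depth chosen, and counts limit Cxcl2, Cxcl1 and Cx3cr1 most. The deepest section was I/R.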
